A study of Mus musculus with 6 samples.

Results

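The comparison described here was that of the higher with the lower dose of ginsenoside Rh2 in mouse heart, 30 against 20 mg/kg, made without doxorubicin (Dox) and again with it. It used 4 of the 6 libraries of the study, Rh2-30 mg/kg against Rh2-20 mg/kg and Rh2-30 mg/kg + Dox against Rh2-20 mg/kg + Dox, and these 2 pairs shared no library. Control (vehicle) and Dox alone served as the levels without Rh2. All mice were female BALB/c nude mice, aged 6 weeks at the start of the experiment. They carried a subcutaneous MDA-MB-231 tumour, a xenograft of a human triple-negative breast cancer line. Treatment began on day 7 and lasted 3 weeks, with Rh2 given daily in phosphate-buffered saline with Tween 80 and Dox at 2 mg/kg every other day to a cumulative 22 mg/kg. Nude mice lack a thymus and so have few mature T cells. Each condition was represented by 1 library made from the pooled hearts of 5 mice, so a dose cannot be told apart from the library that carried it, and no pair had a replicate check.

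For each gene the ratio of the 30 to the 20 mg/kg library was taken in each pair, on the log2 scale, after normalization to library size by the trimmed mean of M values (TMM) and with a prior count of 0.5. A gene was counted in a pair when the ratio was at least 2-fold and its exact 95% interval, which covers counting error only, left out equality. Genes counted the same way in both pairs are called agreeing, and genes counted in opposite ways are called opposing. Of 45777 genes in the table, 18328 reached a mean count of 10 across the 6 libraries and were compared. Of these, 110 agreed and 427 opposed. Since these sets were formed from the ratios themselves, their values are a description and carry no test.

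Rh2 is a steroidal saponin of ginseng that has been studied for antitumour and anti-inflammatory activity. Dox is an anthracycline that intercalates into DNA and blocks topoisomerase II, and damage to heart muscle limits its use. Whole heart RNA mixes the cardiomyocytes of the ventricles and atria with fibroblasts, endothelium, resident macrophages, the mesothelium of the surface, blood, and whatever fat, nerve or vessel stays attached on dissection. In such bulk RNA, fewer cells of a type and less RNA per cell cannot be told apart.

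The libraries were alike in depth, with 86164411 to 90621002 counts, TMM factors of 0.959 to 1.08 and 21533 to 23044 genes above 0. The Rh2-30 mg/kg library held the most genes above 0 and the largest TMM factor. Markers of the ventricle were abundant in every library, with a summed level of 4670 to 7380 CPM (counts scaled to library size) over the list, as the labelled tissue would hold.

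Without Dox, 1320 genes were higher at 30 than at 20 mg/kg, 7.2% of those compared, and 218 were lower, 1.19%. With Dox the balance was turned around, with 352 genes higher, 1.92%, and 1084 lower, 5.91%. Counted in both pairs, 87 genes agreed as higher (0.475%) and 23 agreed as lower (0.125%). By contrast, 397 genes were higher at 30 mg/kg without Dox and lower with Dox (2.17%), and 30 genes were the reverse (0.164%). Opposing genes outnumbered agreeing genes at every fold examined, with 225 agreeing and 864 opposing at 1.5-fold, 60 and 201 at 3-fold, and 34 and 97 at 8-fold.

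The excess of opposing genes was larger in deeply counted genes. Among the 13274 genes with at least 100 counts in each of the 4 libraries, 6 agreed and 62 opposed at 2-fold, and 33 agreed and 271 opposed at 1.5-fold. Over all genes compared, the 2 ratios had the same sign in 37.7%, were positive without Dox and negative with Dox in 32.1%, and the reverse in 29.7%. Across genes, which are not independent replicates and share the same 4 libraries, the 2 ratios had a Pearson correlation of -0.215, and of -0.41 in the deeply counted genes. Genes of each set had low counts. The median mean count was 20.5 in agreeing higher and 33.5 in agreeing lower genes, 56.7 and 19.5 in opposing genes of each orientation, and 880.6 over all genes. Of the agreeing higher genes, 52 of 87 (59.8%) had a count of 0 in at least 1 of the 4 libraries, as did 32% and 40% of the opposing genes.

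**Figure D1:**
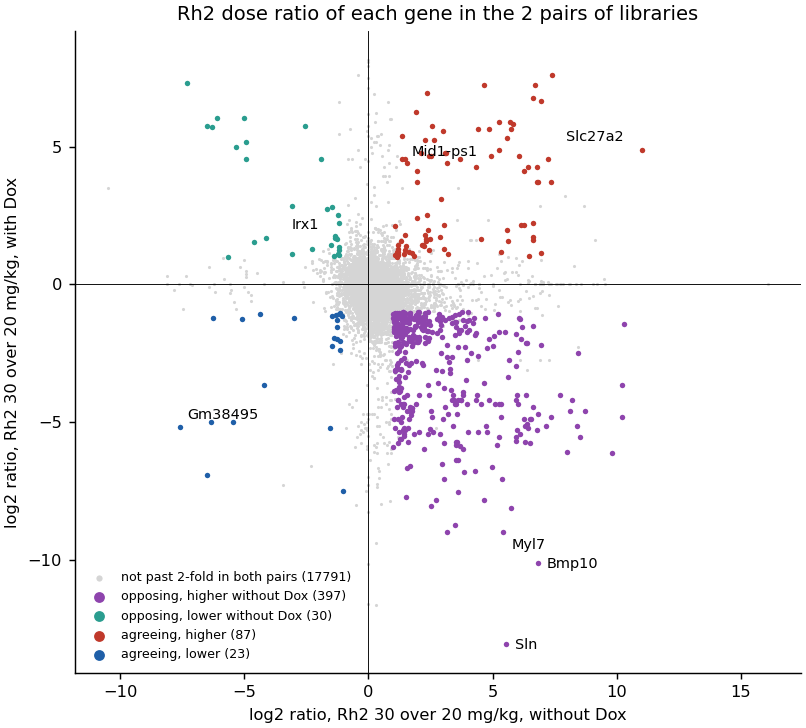
Log2 ratio of Rh2 30 over 20 mg/kg for each of 18328 genes, without Dox on the x axis and with Dox on the y axis, with 1 library per condition. Coloured points passed 2-fold in both pairs; the 397 genes higher without Dox and lower with Dox lie at the lower right, against 87 agreeing as higher and 23 agreeing as lower.

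**Figure D2:**
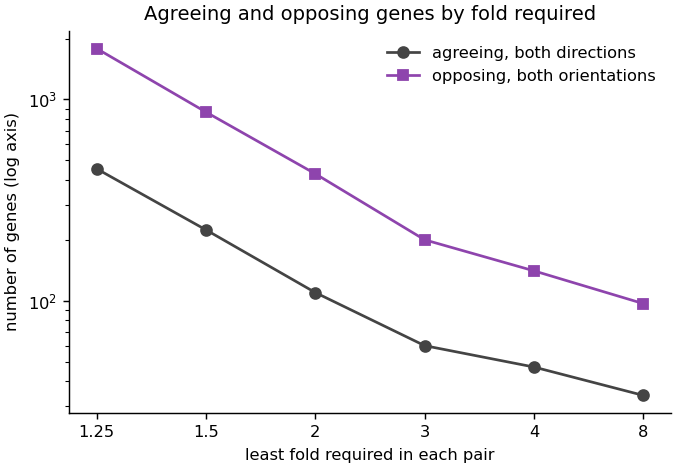
Number of agreeing genes (circles) and opposing genes (squares) on a log axis against the least fold required in each pair, both directions together. Opposing genes lie above agreeing genes at each fold, from 1785 against 452 at 1.25-fold to 97 against 34 at 8-fold.

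The dose was also fitted across all 6 libraries with edgeR's quasi-likelihood test, with Dox and the Rh2 level as terms and 2 residual degrees of freedom. No gene passed a Benjamini-Hochberg adjusted p of 0.05 for 30 against 20 mg/kg (0 of 18328, 0%), and 331 genes had an unadjusted p under 0.05, 178 higher and 153 lower. DESeq2's Wald test with the same terms called 6 genes. Of these, stearoyl-CoA desaturase 4 (Scd4) was higher at 30 mg/kg by 1.82 on the log2 scale (adjusted p = 3.86e-05), nebulin (Neb) was higher by 1.09 (adjusted p = 0.0326), and smooth muscle actin (Acta2) fell by 0.525 (adjusted p = 0.0326). The other three were the potassium channel gene Kcnj13 and the predicted genes Gm38495 and LOC115488159, each with 22 counts or fewer in both libraries of 1 dose. In the quasi-likelihood fit these genes did not pass. A fit without 1 of the 30 mg/kg libraries rests on 1 library at that dose. The difference between the 2 libraries at 30 mg/kg then no longer counts towards the spread. The same holds at 20 mg/kg, so the numbers of genes passing in such fits are not given. With Control or Dox alone left out, 0 genes passed.

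The opposing genes were led by genes of the cardiac atria. Myl7, the atrial regulatory light chain of myosin, had 1187 counts at 20 and 52896 at 30 mg/kg without Dox, and 10613 at 20 and 19 at 30 mg/kg with Dox. Control had 56 and Dox alone 9134. The library at 30 mg/kg was thus the highest of the 6 without Dox and the lowest with Dox, with log2 ratios of 5.40 (95% interval 5.32 to 5.49) and -9.01 (-9.78 to -8.40).

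Myl4, the atrial essential light chain, gave 819 and 32604 counts without Dox and 5289 and 106 with Dox, against 128 in Control and 4639 in Dox alone. Sarcolipin (Sln), a small inhibitor of the calcium pump of the sarcoplasmic reticulum, had 326 and 15768 counts without Dox and 4393 and 0 with Dox, against 14 in Control and 1828 in Dox alone. Its level with Dox was at least 1390-fold lower at 30 mg/kg, with the count of 0 taken as 3 counts. Bmp10, an atrial ligand of the bone morphogenetic protein family, had 4 and 534 counts without Dox and 7644 and 6 with Dox, where Control had 0 and Dox alone 217. All 4 genes share a pattern in which Control and Rh2-20 mg/kg were low, Dox alone and Rh2-20 mg/kg + Dox were high, and the 30 mg/kg libraries lay on the other side.

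The other genes that ranked highest among the opposing ones were Mybphl, a myosin-binding protein of the atria, Sphkap, an anchor of protein kinase A, Fbxw24, an F-box gene, and Hamp, which encodes the iron hormone hepcidin. Mybphl had 125 and 8991 counts without Dox and 984 and 21 with Dox. Hamp had 42 and 1388 without Dox and 783 and 7 with Dox. Sphkap went from 13 to 755 without Dox and from 143 to 0 with Dox, and Fbxw24 from 23 to 1017 and from 69 to 0. Control was at 14 counts or lower in these 4 genes. The natriuretic peptide gene Nppa, which atrial myocytes express at high level, had 3252 and 56331 counts without Dox and 16608 and 6416 with Dox.

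Over the list of 20 atrial markers, 19 were higher at 30 mg/kg without Dox and lower with Dox, against 32.1% of all genes. Past 2-fold in both pairs, 8 of them opposed, against 2.17% of all genes. The median log2 ratio was 1.77 without Dox and -0.49 with Dox. Over all genes compared the medians were 0.01 and -0.01. Without Dox, the summed level of the 20 markers was 1020 CPM in Control, 1040 at 20 mg/kg and 4210 at 30 mg/kg. With Dox it was 1500 CPM with no Rh2, 1780 at the lower dose and 1040 at the higher one. All 13 ventricular markers compared went the other way, lower at 30 mg/kg without Dox and higher with Dox, against 29.7% of all genes. Their medians were -0.54 and 0.35. The part that unequal amounts of atrium in the pooled hearts had in these ratios was not tested.

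The promoter windows of Myl7 and Bmp10 are shown because these 2 atrial genes have among the largest opposite ratios. They hold the 250 bases before the start site in RefSeq (GRCm38.p6), 5′ to 3′ on the strand of the gene. Capitals mark matches, on either strand, to 6 motifs. These were the TATA box (TATAAA), the site of AP-1 factors (TGANTCA), the core of the myeloid factor PU.1 (GAGGAA), the core of GATA factors (AGATAA), the site of the sterol factor SREBP (TCACNCCAC) and the MEF2 site. The last of these, with that of SREBP, was not found in the windows shown. The Myl7 window is chr11:5898783-5899032 on the minus strand and that of Bmp10 chr6:87428744-87428993 on the plus strand.
Myl7: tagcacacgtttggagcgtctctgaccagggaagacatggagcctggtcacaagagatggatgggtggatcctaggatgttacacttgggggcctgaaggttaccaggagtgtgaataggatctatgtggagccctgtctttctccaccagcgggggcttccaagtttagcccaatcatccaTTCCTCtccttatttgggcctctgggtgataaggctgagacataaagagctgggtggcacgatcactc
Bmp10: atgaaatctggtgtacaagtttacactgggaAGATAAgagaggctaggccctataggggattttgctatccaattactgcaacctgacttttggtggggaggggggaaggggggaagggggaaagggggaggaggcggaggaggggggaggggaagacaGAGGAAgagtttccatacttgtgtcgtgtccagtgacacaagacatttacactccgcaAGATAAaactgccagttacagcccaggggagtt
In Bmp10, the GATA letters stood at 219 to 214 and at 33 to 28 bases before the start site and the PU.1 letters at 91 to 86. In Myl7, the PU.1 letters stood on the opposite strand, 68 to 63 bases before the start. Of 32851 windows of the same length, 9.99% held the GATA letters and 23.3% the PU.1 letters, so such a match is a description of the sequence and not a site.

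**Figure D3:**
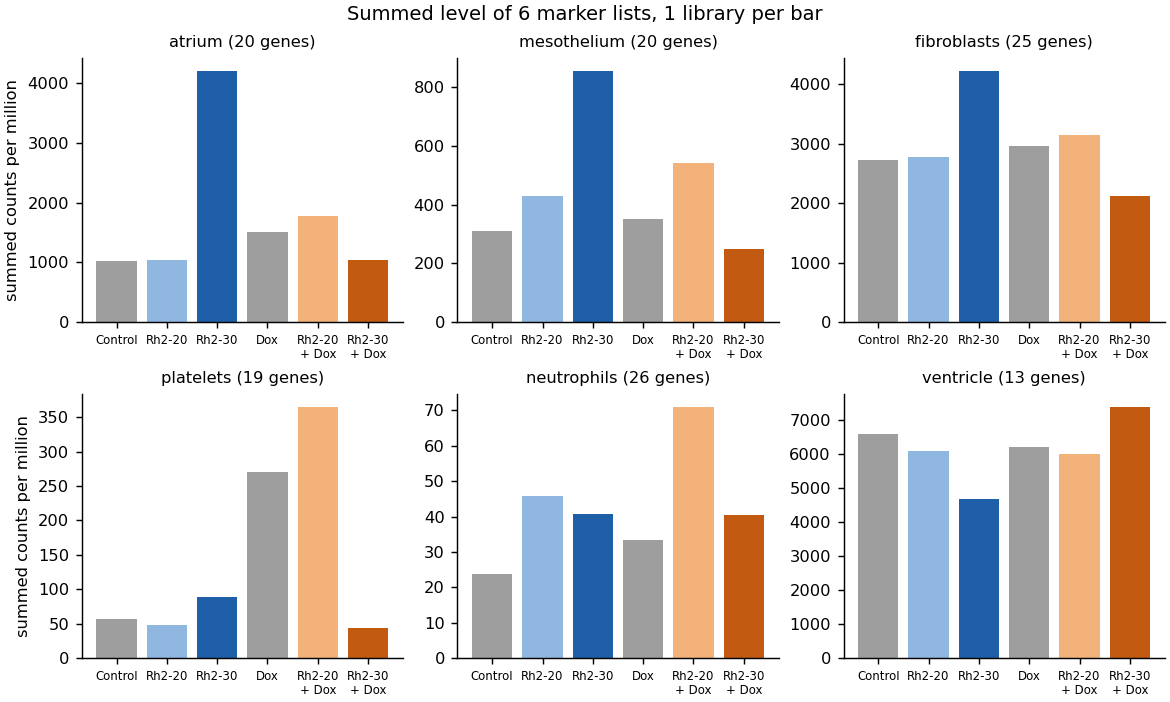
Summed level of 6 marker lists in CPM (TMM), 1 bar per library and so without error bars. Atrial, mesothelial and fibroblast markers were highest in Rh2-30 mg/kg, platelet and neutrophil markers in Rh2-20 mg/kg + Dox, and ventricular markers in Rh2-30 mg/kg + Dox.

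Some genes of white fat opposed in the same orientation. Adiponectin (Adipoq), the main hormone of adipocytes, had 330 and 3716 counts without Dox and 317 and 8 with Dox, against 56 in Control and 650 in Dox alone. Plin1, which coats the lipid droplet of adipocytes, had 72 and 1217 without Dox and 107 and 2 with Dox. Of 22 white fat markers compared, 10 opposed past 2-fold, against 2.17% of all genes, and 0 agreed. Their medians were 2.95 without Dox and -0.48 with Dox. Their summed level was 3450 and 3920 CPM without Dox and 3350 and 3800 with Dox, higher at 30 mg/kg in both pairs. Markers that heart muscle also expresses were nearly level, such as Cd36 with ratios of -0.21 and 0.14. The 20 brown fat markers had medians of 0.21 and 0.30. Past 2-fold, 8 were higher without Dox and 3 were lower with Dox, against 7.2% and 5.91% of all genes. Their summed level was 2170 and 2000 CPM without Dox and 2010 and 2560 with Dox. One of them, the thermogenic gene Ucp1, was at 6442 counts in Rh2-30 mg/kg and between 0 and 12 in the other 5 libraries.

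Some genes of lipid synthesis also opposed. Fatty acid synthase (Fasn) had 4474 and 66132 counts without Dox and 7445 and 2884 with Dox, and stearoyl-CoA desaturase 1 (Scd1) had 2486 and 40447 without Dox and 4446 and 1662 with Dox. Of 43 genes of cholesterol and lipid synthesis compared, 10 were past 2-fold higher without Dox, against 7.2% of all genes, and 4 past 2-fold lower with Dox, against 5.91%. The single member that agreed was Scd4, described below. Cyp2e1, a cytochrome P450 that adipose tissue and liver express, had 2003 and 11659 counts without Dox and 2305 and 57 with Dox. Some white fat markers moved with these genes, and their part in the ratios was not tested.

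Most matrix genes had a positive ratio without Dox and a negative one with Dox. Of 57 collagens and other matrix genes compared, 47 had this pair of signs, against 32.1% of all genes, with medians of 0.57 and -0.64. Past 2-fold, 10 were higher without Dox, 13 were lower with Dox and 7 opposed, against 7.2%, 5.91% and 2.17% of all genes. Mfap4, a microfibril-associated protein, had 599 and 2425 counts without Dox and 1008 and 224 with Dox, and Comp, a cartilage matrix protein, had 451 and 2007 without Dox and 1041 and 396 with Dox. Col1a1, the main fibrillar collagen chain, was short of 2-fold without Dox, with 13918 and 27072 counts (log2 0.89) and 13335 and 6043 with Dox (log2 -1.07). Dkk3, an inhibitor of Wnt signalling listed among fibroblast and atrial markers, had 335 and 5499 without Dox and 1906 and 271 with Dox.

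Mesothelial markers had the same pair of signs in 16 of 19 members, against 32.1% of all genes, with medians of 2.24 and -1.09. Past 2-fold, 10 of them opposed, against 2.17% of all genes. Lrrn4, a surface protein of mesothelium, had 23 and 504 counts without Dox and 172 and 47 with Dox. Fibroblast markers gave 19 of 25 with this pair of signs and macrophage markers 30 of 36, against 32.1% of all genes. The macrophage medians were 0.34 and -0.79. Von Willebrand factor (Vwf), made by endothelium and endocardium, had 20447 and 51646 counts without Dox and 46234 and 19250 with Dox, but the median of the 32 endothelial markers was 0.00 without Dox and -0.12 with Dox.

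Platelet and red cell markers had the lowest list medians with Dox. All 19 platelet and megakaryocyte genes were higher at 30 mg/kg without Dox and lower with Dox, against 32.1% of all genes. Past 2-fold in both pairs, 13 of them opposed, against 2.17% of all genes. Their medians were 1.25 and -3.74. Tubb1, the platelet tubulin, had 241 and 809 counts without Dox and 4625 and 182 with Dox, against 250 in Control and 2903 in Dox alone. Ppbp, a chemokine stored in platelet granules, had 249 and 764 without Dox and 3571 and 208 with Dox, against 296 and 1759. The summed level of the list was 270 CPM for Dox alone and 365 when Rh2-20 mg/kg was added, and between 43.1 and 88.6 in the other 4 libraries.

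Red cell genes were slightly higher at 30 mg/kg without Dox, with a median of 0.35, and lower with Dox, with a median of -1.92. This pair of signs was seen in 16 of 18 members, against 32.1% of all genes. With Dox, 15 members were past 2-fold lower, against 5.91% of all genes. B cell markers were past 2-fold higher in 16 of 21 members without Dox and past 2-fold lower in 8 with Dox, against 7.2% and 5.91% of all genes. E2f2, a cell cycle factor also used by red cell precursors, had 94 and 228 counts without Dox and 216 and 28 with Dox. The part that blood left in the pooled hearts had in these ratios was not tested. The heat shock gene Hspa1a had 2203 and 8509 counts without Dox and 4896 and 2051 with Dox, where Control had 8628 and Dox alone 8449, so the libraries without Rh2 were both at the high end. Its near-identical neighbour Hspa1b could share these reads.

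Genes of energy metabolism and contraction mostly had the other orientation, with small ratios. Of 77 nuclear genes of the respiratory chain, 76 were lower at 30 mg/kg without Dox and higher with Dox, with medians of -0.24 and 0.39, and 0 passed 2-fold in either pair. Atp5b, the catalytic beta subunit of ATP synthase, had 104675 and 96503 counts without Dox and 91373 and 119868 with Dox. The same pair of signs was seen in 40 of 47 genes of glucose use and the citric acid cycle, 33 of 47 of fatty acid oxidation and 34 of 39 of the sarcomere. The sarcomere medians were -0.28 and 0.33. Over all genes compared, 29.7% had this pair of signs.

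Cytosolic ribosomal proteins and histones had the opposite one. Of 79 ribosomal protein genes, 66 were higher at 30 mg/kg without Dox and lower with Dox, with small medians of 0.27 and -0.09, and of 55 replication-dependent histone genes 53 were, with medians of 0.38 and -0.50. Over all genes compared, 32.1% had this pair of signs. Genes of the G2/M phase had medians of 0.21 and -0.62, and 18 of 59 were past 2-fold lower at 30 mg/kg with Dox against 5.91% of all genes, and 0 without Dox. Mki67, a marker of cycling cells, had 10708 and 13001 counts without Dox and 2664 and 677 with Dox.

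**Figure D4:**
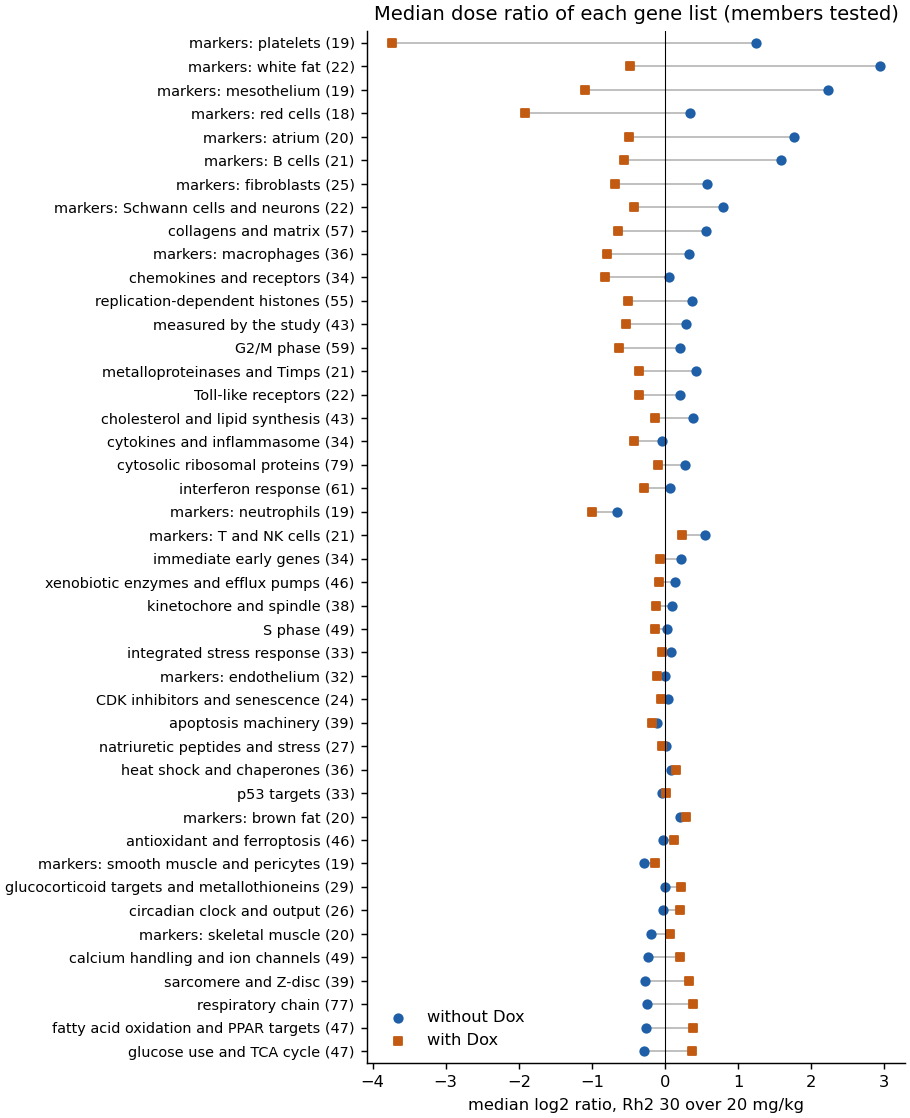
Median log2 ratio of Rh2 30 over 20 mg/kg for each gene list with at least 15 members compared, without Dox (circles) and with Dox (squares), with the number of members in parentheses. Lists are ordered by the difference of the 2 medians; platelet markers lie at 1.25 and -3.74 at the top, and neutrophil markers lie below 0 in both pairs, at -0.65 and -1.0.

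Among the 30 genes that were lower at 30 mg/kg without Dox and higher with Dox, 4 had enough counts to be ranked. Irx1 and Irx2, neighbouring Iroquois transcription factor genes that pattern the heart, moved alike. Irx1 had 253 and 105 counts without Dox and 169 and 518 with Dox, and Irx2 had 351 and 150 without Dox and 190 and 578 with Dox. For Irx2 the log2 ratios were -1.30 (95% interval -1.59 to -1.02) and 1.68 (1.44 to 1.93). Their relatives Irx3 and Irx5 had ratios of -1.0 and 0.67 and of -0.80 and 0.95.

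Uhrf1bp1l, which encodes a lipid transfer protein of the bridge type, had 23638 and 9469 counts without Dox and 10756 and 20867 with Dox. Control had 9661 and Dox alone 9633, so Rh2-20 mg/kg and Rh2-30 mg/kg + Dox were the 2 libraries apart. Sap25, a subunit of a histone deacetylase complex, had 142 and 8 counts without Dox and 75 and 226 with Dox, against 15 in Control and 13 in Dox alone. The tissue inhibitor Timp4 had the same signs below 2-fold, with 2129 and 1443 counts without Dox and 2606 and 4904 with Dox.

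The genes that agreed as lower at 30 mg/kg numbered 23. The best counted were Il1b and Slfn4. Il1b encodes interleukin 1 beta, the inflammatory cytokine that is processed by the inflammasome, and lies on chromosome 2 at 129364569 to 129371164 (GRCm38.p6). It had 238 counts at 20 and 100 at 30 mg/kg without Dox, and 396 and 173 with Dox. Control had 292 and Dox alone 278, so both 30 mg/kg libraries were the lowest of the 6. The log2 ratios were -1.32 (95% interval -1.68 to -0.98) and -1.12 (-1.38 to -0.86), and the dose term had an unadjusted p of 0.0158 and an adjusted p of 1 in edgeR's quasi-likelihood test. Its antisense gene Il1bos overlaps it, and whether counting used strand is not given in the sources used here.

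Its neighbour Il1a, interleukin 1 alpha, agreed at low counts, with 27 and 10 without Dox and 17 and 3 with Dox, and their start coordinates lie 64960 bases apart. Slfn4, a member of the schlafen family that myeloid cells induce with interferon, lies on chromosome 11 at 83175172 to 83190216. It had 1794 and 837 counts without Dox and 2093 and 940 with Dox, and 823 in Control and 603 in Dox alone. Here the 20 mg/kg libraries were the 2 apart, and both 30 mg/kg libraries were close to the libraries without Rh2. The log2 ratios were -1.17 (95% interval -1.29 to -1.05) and -1.08 (-1.19 to -0.97).

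The promoter windows of these 3 genes, picked by hand from the agreeing lower genes, are shown with the same letters searched and capitals for matches. Other genes of this set, such as Mefv and Chil3, are not shown, so the 3 windows do not describe the set. They cover chr2:129309973-129310222 on the minus strand for Il1a, chr2:129371140-129371389 on the minus strand for Il1b and chr11:83174936-83175185 on the plus strand for Slfn4. In all 3 the RefSeq start site used lies inside the gene span, so the windows overlap it. The overlap is a few bases for Il1b and Slfn4, but for Il1a, whose span runs from 129299609 to 129310186, most of the window lies within the span.
Il1a: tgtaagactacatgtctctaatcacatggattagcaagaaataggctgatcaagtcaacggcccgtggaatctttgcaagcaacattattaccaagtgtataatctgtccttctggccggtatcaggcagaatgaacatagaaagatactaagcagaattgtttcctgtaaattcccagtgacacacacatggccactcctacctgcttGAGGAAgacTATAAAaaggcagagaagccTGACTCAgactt
Il1b: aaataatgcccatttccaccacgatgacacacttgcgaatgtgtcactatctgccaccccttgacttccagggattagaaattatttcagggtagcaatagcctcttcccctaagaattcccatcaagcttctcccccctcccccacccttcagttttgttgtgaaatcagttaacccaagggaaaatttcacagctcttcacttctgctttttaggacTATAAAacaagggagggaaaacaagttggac
Slfn4: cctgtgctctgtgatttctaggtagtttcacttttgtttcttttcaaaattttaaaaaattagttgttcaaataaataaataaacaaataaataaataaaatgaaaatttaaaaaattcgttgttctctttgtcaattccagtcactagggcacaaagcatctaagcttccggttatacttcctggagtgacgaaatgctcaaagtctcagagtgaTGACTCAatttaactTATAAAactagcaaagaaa
All 3 held a TATA box, 32 to 27 bases before the start in Il1a, 31 to 26 in Il1b and 19 to 14 in Slfn4. The AP-1 letters were found in Il1a at 12 to 6 and in Slfn4 at 34 to 28 bases before the start, and the PU.1 letters in Il1a at 41 to 36. Of all windows, 12.4% held the TATA letters and 6.75% the AP-1 letters. A window was found for 74 of the 110 agreeing genes and for 291 of the 427 opposing genes.

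The remaining ranked genes of this set were Pacsin1, a membrane-bending protein of endocytosis, Mefv, which encodes the inflammasome sensor pyrin, and Trpv3, a heat-activated cation channel. Pacsin1 had 161 and 64 counts without Dox and 84 and 20 with Dox, with 108 in Control but 18 in Dox alone. Mefv had 60 and 28 without Dox and 59 and 13 with Dox. Trpv3 had 57 and 27 without Dox and 63 and 11 with Dox. In these 3 genes the higher dose was lower in each pair, yet Dox alone was as low as the 30 mg/kg library for Pacsin1 and at the level of 20 mg/kg for Trpv3.

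Neutrophil markers leaned the same way. Of 19 compared, 13 were lower at 30 mg/kg in both pairs, against 19.0% of all genes, with medians of -0.65 and -1.0. Chil3, a chitinase-like protein of myeloid cells, was the member past 2-fold in both, with 34 and 16 counts without Dox and 112 and 51 with Dox. S100a9, a calcium-binding alarmin of neutrophils, had 622 and 287 counts without Dox (log2 -1.19) and 810 and 411 with Dox (log2 -0.90). The chemokine receptor Cxcr2 had 230 and 84 without Dox and 422 and 223 with Dox, and the neutrophil collagenase Mmp8 had 98 and 51 and 274 and 167.

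The list was not uniform. Lactoferrin (Ltf) and haptoglobin (Hp), granule and acute-phase proteins that other tissues also make, opposed, with Ltf at 19 and 270 counts without Dox and 75 and 22 with Dox. The summed level of the neutrophil list without Dox was 45.8 CPM at the lower and 40.6 at the higher dose, beside 23.7 in Control. With Dox it was 71 CPM at the lower and 40.5 at the higher dose, beside 33.5 for Dox alone. The median of the neutrophil markers was lower at 30 mg/kg in both pairs, as were Il1b and Slfn4. Their summed level changed little between the doses without Dox, but this sum includes Hp and Ltf, which were higher at 30 mg/kg. Hp had 478 and 1144 counts without Dox. Of the 19 members compared, 14 were lower at 30 mg/kg without Dox and 5 were higher. The summed level was lowest in Control, where Il1b at 3.51 CPM was above its 2.64 CPM in Rh2-20 mg/kg. The part of neutrophils in the ratios of Il1b and Slfn4 was not tested.

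Cytokines and inflammasome genes were lower at 30 mg/kg in both pairs in 19 of 34 compared, against 19% of all genes. Their median was nearly level without Dox, at -0.04, and was -0.42 with Dox. Besides Il1a and Il1b, no member was past 2-fold in both. Casp1, the protease that matures interleukin 1 beta, had 1097 and 1127 counts without Dox and 1055 and 497 with Dox. Socs3, a feedback inhibitor of cytokine signalling, had 288 and 195 without Dox and 343 and 175 with Dox, and Nlrp3, an inflammasome sensor, 330 and 378 without Dox and 315 and 208 with Dox. Of 34 chemokine and receptor genes compared, 12 were past 2-fold lower with Dox and 6 past 2-fold higher without Dox, against 5.91% and 7.2% of all genes, and 0 agreed.

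A further cut, chosen after the values were seen, took 1.5-fold with at least 30 counts in each of the 4 libraries. With it, 51 genes agreed as higher and 33 as lower, and no share over all genes was taken. Among the lower ones, picked with their values in view, were the myeloid receptors Sirpb1a, Clec4e and Cd300lf. Clec4e had 63 and 31 counts without Dox and 61 and 31 with Dox, and Cd300lf had 305 and 183 without Dox and 407 and 227 with Dox. Sirpb1a had 135 and 72 without Dox and 257 and 79 with Dox, but its close copies could share reads. Esm1, a secreted product of activated endothelium, had 395 and 234 without Dox and 240 and 108 with Dox.

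The genes that agreed as higher at 30 mg/kg included Scd4, Tnfsf13, Tpsb2 and Neb. Scd4, the desaturase isoform of the heart, lies on chromosome 19 at 44333326 to 44346743. It had 629 and 2956 counts without Dox and 655 and 1674 with Dox, against 658 in Control and 839 in Dox alone. Both 30 mg/kg libraries were above the other 4, which lay close together. The log2 ratios were 2.16 (95% interval 2.03 to 2.28) and 1.43 (1.30 to 1.56), with an unadjusted p of 0.00169 and an adjusted p of 1 in edgeR's quasi-likelihood test.

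Its relatives in the same gene cluster did not share this pattern. Scd1 opposed, Scd2 had ratios of 1.06 and -0.47, and Scd3 had 265 and 1998 counts without Dox and 342 and 303 with Dox. These copies are similar in sequence, so reads could be split between them. The promoter window of Scd4, chr19:44333076-44333325 on the plus strand, is shown as that of the best counted agreeing enzyme.
Scd4: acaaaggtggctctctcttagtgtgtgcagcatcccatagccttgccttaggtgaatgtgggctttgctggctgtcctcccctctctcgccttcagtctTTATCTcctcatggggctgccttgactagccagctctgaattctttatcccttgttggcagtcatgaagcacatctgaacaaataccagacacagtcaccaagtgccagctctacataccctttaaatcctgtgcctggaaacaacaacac
The sole match was to the GATA letters on the opposite strand, 151 to 146 bases before the start.

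Tnfsf13 encodes APRIL, a cytokine that sustains B and plasma cells. It had 120 and 391 counts without Dox and 190 and 405 with Dox, with 154 in Control and 235 in Dox alone, and log2 ratios of 1.63 (95% interval 1.33 to 1.94) and 1.17 (0.92 to 1.43). Both 30 mg/kg libraries were the highest of the 6. It lies within the readthrough gene Tnfsfm13, whose ratios were -0.03 and -0.51, and reads of the shared bases could be assigned to either.

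Tpsb2, a tryptase of mast cell granules, had 46 and 172 counts without Dox and 50 and 98 with Dox, with 65 in Control and 37 in Dox alone. Of 9 mast cell markers compared, 7 were higher at 30 mg/kg in both pairs, against 18.7% of all genes, with medians of 1.44 and 0.22. The mast cell carboxypeptidase Cpa3 had 135 and 412 counts without Dox and 155 and 275 with Dox, and Tpsab1, a second tryptase close in sequence to Tpsb2, had 20 and 78 and 38 and 66. The chymase Cma1 was level with Dox, with 50 counts in each library. Control stood at 317 counts of Cpa3 and 177 of the protease Mcpt4, nearer to 30 than to 20 mg/kg.

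Nebulin (Neb), a giant protein of the thin filament best known from skeletal muscle, was the agreeing gene with most counts. It had 8688 and 20478 without Dox and 6363 and 12199 with Dox, with 10848 in Control and 13387 in Dox alone. Control lay between the doses and Dox alone was the second highest of the 6, and the log2 ratios were 1.16 (95% interval 1.13 to 1.20) and 1.02 (0.97 to 1.06). Skeletal muscle markers did not follow it, with medians of -0.19 and 0.07 over 20 genes.

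**Figure D5:**
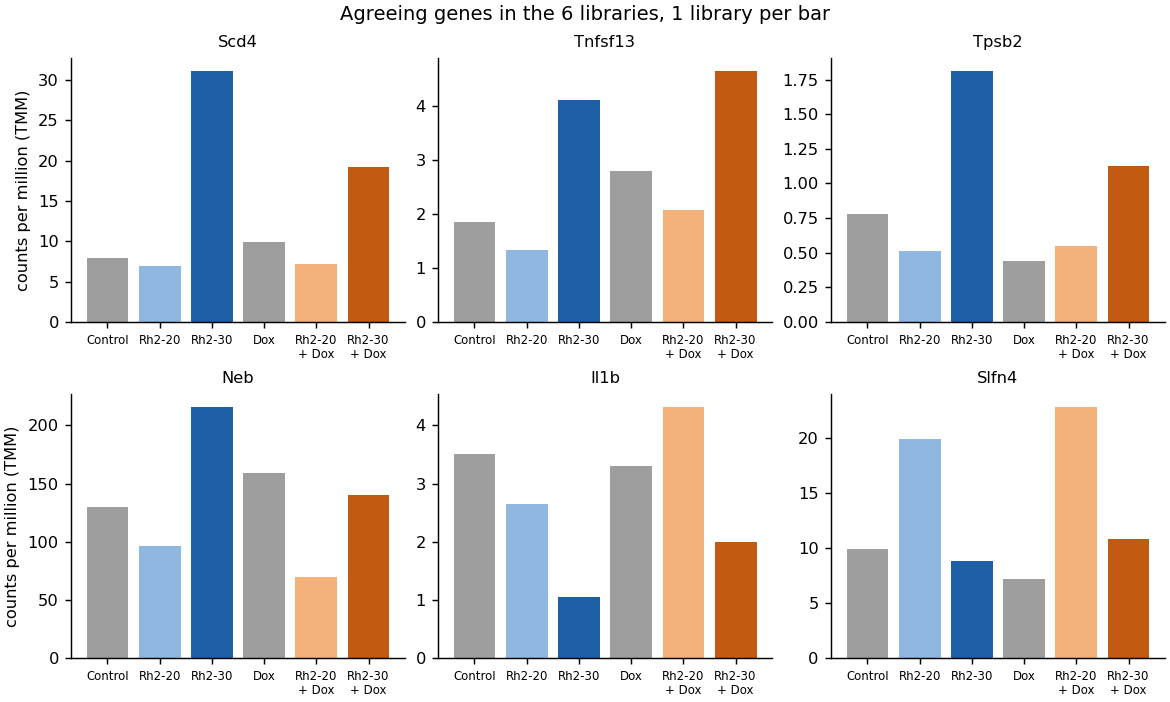
Level of 6 agreeing genes in CPM (TMM) in each library, 1 bar per library and so without error bars. Scd4, Tnfsf13, Tpsb2 and Neb were higher at 30 than at 20 mg/kg in both pairs and Il1b and Slfn4 lower, while the grey bars of Control and Dox alone lay nearer to 20 mg/kg for Scd4 and nearer to 30 mg/kg for Slfn4.

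The other ranked genes of this set include channels. Gabrb2, a subunit of the GABA-A receptor, had 45 and 131 counts without Dox and 108 and 357 with Dox. Panx2, a pannexin channel, had 29 and 154 without Dox and 22 and 66 with Dox. Kcnj13, an inward rectifier potassium channel, was at 0 in both 20 mg/kg libraries, with 55 counts at 30 mg/kg without Dox and 74 with Dox, at least 17.4-fold and 26.0-fold higher. Control had 65 counts and Dox alone 51, and Kcnj13 lies inside the gene Gigyf2. Whether the counts of 0 are a failed estimate was not tested.

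Msi1, an RNA-binding protein of progenitor cells, had 38 and 92 counts without Dox and 49 and 104 with Dox. Orm3, an acute-phase glycoprotein, had 43 and 230 without Dox and 60 and 169 with Dox, while its near copy Orm1 opposed with 36 and 749 and 57 and 0, so their counts are uncertain. The same holds for Mid1-ps1, Erdr1 and Rpl13-ps1, which are pseudogenes or genes with other copies in the genome. Mid1-ps1 had 160 and 436 counts without Dox and 233 and 5139 with Dox, and Erdr1 had 87 and 194 and 147 and 613.

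Of the 87 agreeing higher genes, 12 could be ranked by the count minimum of 50, and the rest rested on few counts. Slc27a2, a fatty acid transporter that marks brown fat here, was at 0 in both 20 mg/kg libraries, with 1105 counts at 30 mg/kg without Dox and 14 with Dox. Fat markers moved with it without Dox, and their part was not tested. The neuronal marker Snap25 had 283 counts in Rh2-30 mg/kg and 0 in the other 5 libraries.

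Some weaker ratios of genes with many counts agreed. The orphan nuclear receptor Nr4a1, an immediate early gene, had 3509 and 6861 counts without Dox and 2520 and 4719 with Dox, with log2 ratios of 0.89 and 0.98, but other immediate early genes such as Egr3 opposed, with 116 and 384 and 117 and 42. Acta2 had 20744 and 15730 counts without Dox and 19008 and 12127 with Dox, with log2 ratios of -0.47 and -0.57, and Control had 21968 and Dox alone 20398. Of 19 smooth muscle and pericyte markers, 11 were lower at 30 mg/kg in both pairs, against 19.0% of all genes. Fkbp5, a target of the glucocorticoid receptor, had 3171 and 4889 counts without Dox and 5981 and 9770 with Dox.

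Where the libraries without Rh2 lay depended on the gene. Of the 87 agreeing higher genes, Control lay nearer to 20 mg/kg in 50 and Dox alone nearer to 20 mg/kg in 29, and both did so in 17. Of the 23 agreeing lower genes, both lay nearer to 20 mg/kg in 9 and both nearer to 30 mg/kg in 5. In the 397 genes higher without Dox and lower with Dox, both lay nearer to 20 mg/kg in 251. Both lay nearer to 30 mg/kg in 18, and 128 were mixed. The sets were formed from the same libraries and no share over all genes was taken, so these counts are a description only.

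Of 43 genes whose RNA or protein the study followed in these hearts, 2 agreed past 2-fold, Il1a and Il1b. Another 2 opposed, the tissue inhibitor Timp1 and the metalloproteinase Mmp27. Over all genes compared, 0.125% agreed as lower and 2.17% opposed in the orientation of Timp1 and Mmp27. Timp1 had 199 and 450 counts without Dox and 294 and 120 with Dox. Toll-like receptors sense microbial and tissue damage signals. They were higher at 30 mg/kg without Dox and lower with Dox in 12 of 22 members, against 32.1% of all genes. A further 6 were lower in both pairs, against 19% of all genes. Tlr2 had 340 and 557 without Dox and 345 and 143 with Dox. Tnf was level in both pairs, at 50 and 50 and at 35 and 32 counts. The apoptotic protease gene Casp9 had 527 and 589 counts without Dox and 571 and 459 with Dox. The median over these 43 genes was 0.29 without Dox and -0.54 with Dox. The matrix gelatinase Mmp2 had 7690 and 11456 without Dox and 9120 and 6286 with Dox, and vimentin (Vim), a filament of mesenchymal cells, had 35877 and 50509 and 34202 and 18701.

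Of the 51 gene lists, 41 had medians of opposite sign in the 2 pairs. The lists with most members of the same sign in both pairs were mast cells with 77.8%, neutrophils with 68.4% and cytokines and inflammasome genes with 61.8%, beside 37.7% over all genes. At the other end, red cells, platelets, ventricular markers and the respiratory chain had 0 members of the same sign.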

How the data were processed

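RNA from 5 pooled hearts per condition was captured with the SureSelectXT RNA Direct kit and sequenced as 101-base reads. Per the labels and the study's methods, the authors demultiplexed with bcl2fastq 2.20.0, trimmed with Trimmomatic, aligned to mm10 with HISAT2 2.1.0 on a UCSC table browser annotation, and estimated abundance per gene with StringTie 2.1.3b. The authors deposited whole-number read counts per gene, which were used for the results, together with FPKM values and TPM values from StringTie. The deposited FPKM was used in an alternative with a pseudocount of 1, and the deposited TPM was not used here. Strand in counting is not given in the sources used here.

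Counts were filtered to a mean of at least 10 and scaled by TMM in edgeR 4.0.16 (R 4.3.3, limma 3.58.1). Each pair was compared by the log2 ratio of TMM-scaled counts with a prior count of 0.5, and by an exact conditional binomial 95% interval that covers counting error only. A fold against a count of 0 was computed with 3 counts in that library and is a lower bound. The dose term was fitted in edgeR by quasi-likelihood, adjusted by Benjamini-Hochberg over all genes compared, and by the Wald test of DESeq2 1.42.0 as an alternative. The script was tested on simulated counts. RefSeq sequences and positions are those of GRCm38.p6. Figures were drawn with matplotlib 3.10.9.

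Genes were named by rank of the smaller of the 2 absolute log2 ratios, without predicted genes. Up to 12 agreeing genes in each direction and 8 opposing genes in each orientation were taken. An agreeing gene needed at least 50 counts in both libraries of the dose at which it was higher. An opposing gene needed at least 50 counts in the higher library of each pair. Up to 4 agreeing and 4 opposing members of each list, genes passing the dose term and genes the study measured could be named too, and any other name was picked with its values in view. The members and lists were chosen with earlier results of these data known. Alternatives were DESeq2 size factors, total counts, a prior of 2, other filters and folds, FPKM, and each library left out. Some items are not reported here.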

Additional observations from a re-analysis of the deposited data

Results flagged for a closer look

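These results were singled out because the dose ratio had opposite signs without and with Dox, in each case between 1 library and 1 library, and the differences were not tested. There were 397 genes higher at 30 mg/kg without Dox and lower with Dox, and 30 genes of the reverse orientation. Values that follow are the log2 dose ratio with Dox minus that without, so a negative value means that the ratio was lower with Dox.

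For atrial genes the differences were -14.41 in Myl7, -10.80 in Myl4, -16.94 in Bmp10, -18.57 in Sln, -11.53 in Mybphl and -5.33 in Nppa. They were -13.85 in Sphkap, -12.43 in Fbxw24 and -11.59 in Hamp. Where a library had a count of 0, as in Sln, Sphkap and Fbxw24, the value depends on the prior count. Fat and lipid genes gave -9.35 in Plin1, -8.56 in Adipoq, -5.10 in Fasn, -5.29 in Scd1 and -7.71 in Cyp2e1.

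In surface, vessel and matrix genes the differences were -6.13 in Lrrn4, -2.45 in Vwf, -6.70 in Dkk3, -4.03 in Mfap4 and -3.40 in Comp. Platelet genes gave -6.26 in Tubb1 and -5.56 in Ppbp. The cell cycle factor E2f2 gave -4.05 and the heat shock gene Hspa1a -3.05. The immediate early gene Egr3 gave -3.04, the acute-phase genes Orm1 and Hp -11.08 and -2.64, Ltf -5.39, and the matrix regulators Timp1 and Mmp27 -2.31 and -2.07. In the reverse orientation the differences were 5.80 in Sap25, 3.03 in Irx1, 2.98 in Irx2 and 2.43 in Uhrf1bp1l.

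The same difference taken between list medians was -4.99 for platelet markers, -3.33 for mesothelial markers, -2.15 for B cell markers, -1.25 for fibroblast markers and -1.20 for collagens and matrix genes.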

How the results depend on the processing

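The 4 counts are given in the order agreeing higher, agreeing lower, opposing higher then lower, and opposing lower then higher, and were 87, 23, 397 and 30. They became 159, 66, 769 and 95 at 1.5-fold, and 55, 5, 188 and 13 at 3-fold. With a count above 0 required in every library they were 31, 13, 259 and 15, and with no filter on low counts 192, 58, 487 and 63. On the log2(FPKM + 1) scale, which has no interval and understates low genes, they were 0, 1, 36 and 0. With at least 100 counts in each of the 4 libraries, an alternative chosen after seeing the data, they were 4, 2, 59 and 3. DESeq2 size factors gave 89, 25, 381 and 30, of which 86, 23, 381 and 30 were the same genes. Counts under 3 set to 3 gave 73, 21, 356 and 30, and leaving out the cell type markers gave 83, 21, 327 and 30, both also chosen after seeing the data.

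The dose term, with 0 genes passing, gave 331 at an unadjusted p under 0.05 and 6 by DESeq2's Wald test. Leaving out 1 library at a time gave 0 to 740 genes, with 397 without Rh2-30 mg/kg and 740 without Rh2-30 mg/kg + Dox, and 0 in the other 4 fits. The cause was not tested. Among the values of single genes and lists under the alternatives, 273 were classed as unchanged and 54 as moved. Values of single genes were judged against the interval. List medians have no interval and were judged by a fixed size of shift on the log2 scale. A median near 0 could therefore change sign and still be classed as unchanged. Of the list medians near 0, some changed sign on the FPKM scale, without Dox p53 targets (-0.04 to 0.01), cytokines and inflammasome genes (-0.04 to 0.03), circadian genes (-0.02 to 0.03) and antioxidant genes (-0.02 to 0.04), and with Dox p53 targets (0.02 to -0.05) and mitochondrially encoded genes (0.08 to -0.01). With DESeq2 size factors glucocorticoid targets without Dox went from 0.01 to -0.01. The number of lists with medians of opposite sign was 41, and 40 with DESeq2 size factors and 39 on the FPKM scale. No paired analysis by replicate number was possible because each condition had 1 library. The doses were paired within each Dox state instead, and the fit without the Dox term also gave 0 genes.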
